A study of Mus musculus with 27 samples.

Results

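Homeostatic assembloids were compared with hepatocyte organoids (HepOrgs) after 1 week of culture, by RNA-seq of 3 libraries per group. These 6 libraries are all those the labels give for the 2 groups, out of 27 libraries in the series. All 6 are labelled as C57BL/6 mouse primary liver cells of wild-type genotype kept for 7 days in the same medium, MM, which holds 30% Wnt conditioned medium and 10 µM of a ROCK inhibitor, so that the controls received the Wnt activity and the inhibitor as well. The MM HepOrgs, at passage 2, were grown from isolated hepatocytes with no other cell type added. The study states that bile duct organoids or mesenchyme sometimes grew in such cultures up to passage 2 and were picked out by hand. For a homeostatic assembloid, 10 HepOrgs were brought together in a well with 1000 dissociated cholangiocytes, the epithelial cells of the bile duct, and 250 portal mesenchymal cells sorted for SCA1 and a PDGFRα reporter, the numbers that the study chose to resemble healthy periportal tissue. These HepOrgs were freed from Matrigel, hand-picked, aggregated with the added cells in suspension and seeded again, in some cases after a time in MM. The study describes no aggregation step for the MM HepOrgs. This handling, any extra time in MM that came with it and the added cells therefore cannot be told apart. No endothelial, immune or stellate cells were added, and the hepatocytes of the HepOrgs had been expanded in culture. The labels of the assembloids give 1 wild-type genotype for all cells, although the study takes the mesenchyme from a PDGFRα-H2B-GFP line and the cholangiocytes from a line with nuclear tdTomato. Nothing in the labels says whether replicates of a group are separate cultures or animals, so the p-values measure only the spread between these libraries, which may be technical.

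Around a portal vein, hepatocytes, bile duct cells and portal fibroblasts lie next to each other, and hepatocytes express different genes from the portal to the central vein. Genes of gluconeogenesis and urea formation are strongest near the portal vein, whereas genes that depend on Wnt signals from the central vein, such as those for glutamine synthesis and for several cytochrome P450 enzymes, are strongest at the other end. Portal fibroblasts are known for matrix genes such as Mgp, and cholangiocytes for the keratins Krt7 and Krt19.

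The 6 libraries held 35279254 to 58815016 counts on 21850 genes, and replicate 2 of the assembloids stood apart from the other 5. A count was found for 8465 genes in replicate 2 and for 14452 to 15387 genes in the others. Of the 9199 genes with at least 100 counts in each of the other 5 libraries, 2808 (30.5%) were at 0 in replicate 2, whereas the same check of each other library found 0 such genes among 5099 to 5176. Across genes, which are not independent replicates, the correlation of log2 CPM, the counts scaled to a common library size, was at least 0.966 between any pair of the other 5 libraries and between 0.661 and 0.699 with replicate 2. The counts of genes are therefore given for the 6 libraries and for the 5 that remain without replicate 2, where the assembloids have 2 libraries. The values of all 6 libraries are printed for the genes described, and fold changes are on the libraries named beside them. A CPM below is scaled by the TMM factors of edgeR and is compared only within a gene.

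**Figure D1:**
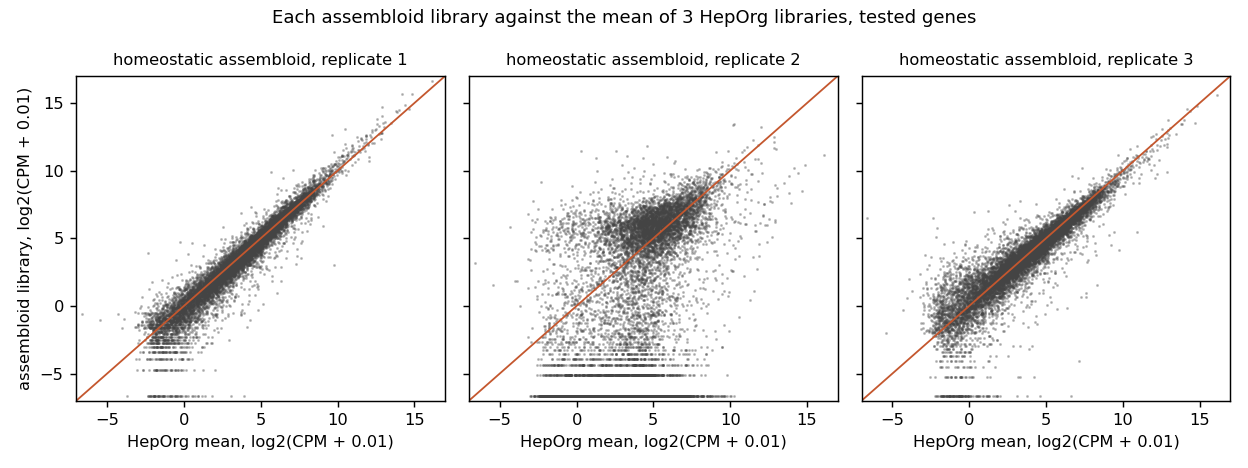
Level of each tested gene in 1 homeostatic assembloid library (vertical axis, log2 of CPM + 0.01) against its mean in the 3 HepOrg libraries (horizontal axis, same scale). Each point is a gene and the line marks equal levels; replicates 1 and 3 lie along the line, whereas replicate 2 has a band of genes at 0 along the bottom that have high levels in HepOrgs.

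Reads of the 2 reporters were found in all 3 assembloids and in no HepOrg library. The eGFP row, the marker of the added mesenchyme, held 23 counts in replicate 1, 472 in replicate 2 and 5357 in replicate 3, or 0.643, 8.9 and 89.3 CPM. Set against 3 counts per HepOrg library, the mean of the assembloids was at least 491-fold higher, or at least 670-fold higher without replicate 2. The tdTomato row, the marker of the added cholangiocytes, held 9, 238 and 6277 counts, or 0.252, 4.49 and 105 CPM, and the mean was at least 543-fold higher, or at least 781-fold higher without replicate 2. The assembloid libraries differed widely among themselves in both reporters, with replicate 1 the lowest and replicate 3 the highest.

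The defining markers of the 3 cell types followed a different order. The summed level of 10 hepatocyte markers was 71209, 62004 and 23046 CPM in HepOrgs, and 102279, 2864 and 41307 CPM in assembloid replicates 1, 2 and 3. Replicate 2 was thus the only assembloid below the HepOrg range. The 6 cholangiocyte markers summed to 55.7, 94 and 120 CPM in HepOrgs and to 74.4, 5851 and 517 CPM in the assembloids, so that replicate 1 lay within the HepOrg range and the other two above it. The 9 mesenchyme markers summed to 236, 117 and 122 CPM in HepOrgs and to 127, 1997 and 319 CPM in the assembloids, with replicate 1 again within the range. In bulk libraries, fewer cells of a type and less RNA per cell cannot be told apart. Hnf4a, the transcription factor that defines hepatocytes, was at 181, 169 and 127 CPM in HepOrgs and at 205, 156 and 187 CPM in the assembloids, including replicate 2. Albumin (Alb) was at 14100, 10119 and 10039 CPM in HepOrgs and at 12053, 532 and 6750 CPM in the assembloids. Pdgfra, the gene whose promoter drives the mesenchymal reporter, was at 3.92, 0.302 and 0.342 CPM in HepOrgs and at 0.783, 0.961 and 1.3 CPM in the assembloids, so that the groups overlapped.

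**Figure D2:**
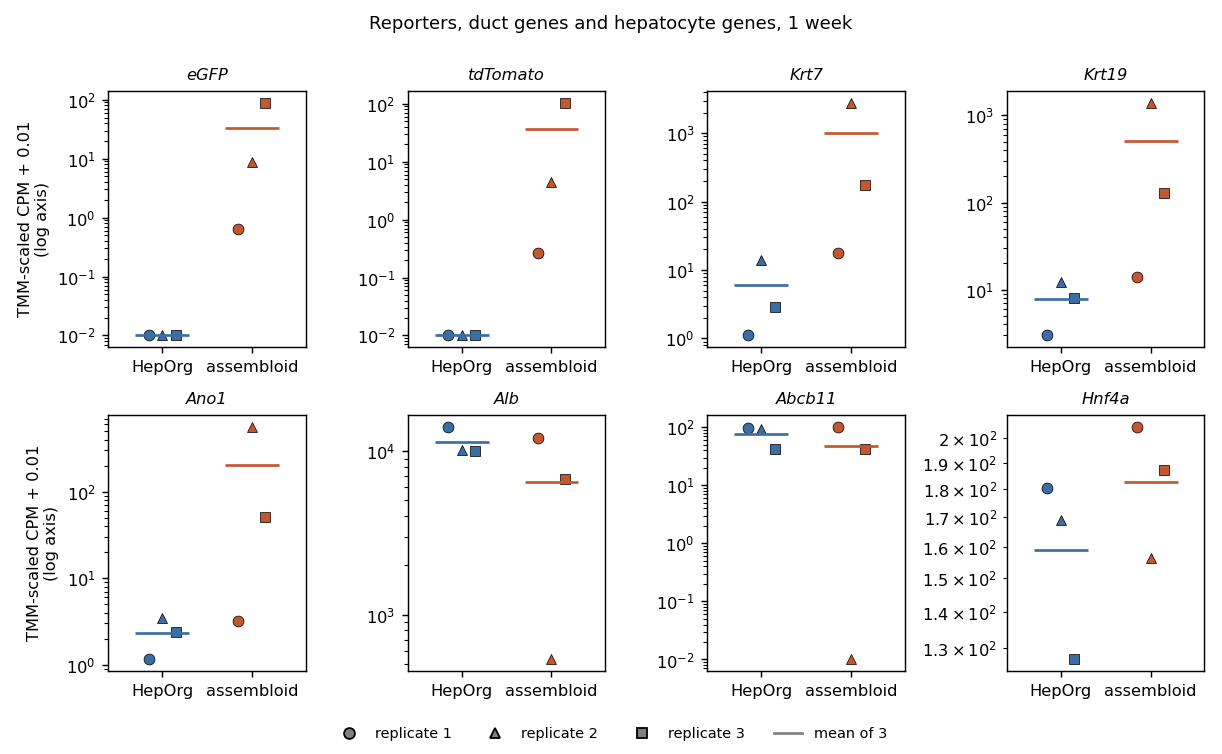
TMM-scaled CPM + 0.01 (log axis) of the reporters eGFP and tdTomato, the duct genes Krt7, Krt19 and Ano1, and the hepatocyte genes Alb, Abcb11 and Hnf4a in the HepOrg and assembloid libraries at 1 week. Each symbol is a replicate and the line is the mean of 3; the reporters are at 0 in HepOrgs, and replicate 2 of the assembloids is high in the duct genes, low in Alb and at 0 in Abcb11.

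No gene passed an adjusted p of 0.05 in edgeR's quasi-likelihood test with Benjamini-Hochberg adjustment, either among the 12570 genes tested on 6 libraries (0%) or among the 13016 tested on 5 (0%). On 6 libraries the unadjusted p was under 0.05 for 265 genes higher in assembloids (2.11%) and for 107 lower (0.851%), with a biological coefficient of variation of 1.111. On 5 libraries these were 745 genes (5.72%) and 942 genes (7.24%), the coefficient was 0.378, and the smallest adjusted p was 0.168 against 1 on 6 libraries. DESeq2, run as an alternative, called 73 genes higher (0.581%) and 45 lower (0.358%) on 6 libraries, and 253 higher (1.94%) and 338 lower (2.6%) on 5. The counts of calls therefore depended on the tool, and the adjusted p-values given below are from edgeR unless DESeq2 is named.

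Genes were also counted where every assembloid library lay above, or below, every HepOrg library. On 6 libraries 684 of the genes tested (5.44%) were higher without overlap and 1701 (13.5%) were lower, and on 5 libraries 2003 (15.4%) were higher and 2306 (17.7%) were lower. These shares are the background for the counts in gene lists. A gene at 0 in replicate 2 could be lower without overlap on 6 libraries but never higher. For such a gene, being lower on 6 libraries adds nothing to being lower on 5. The median log2 fold change over all genes tested was -0.23 on 6 libraries and 0 on 5. The libraries were also scaled to the plasma protein genes with a count in each library fitted, 28 on 6 libraries and 30 on 5. This sets the typical level of these genes equal. The median over all genes then moved to 0.76 on 6 libraries and to -0.15 on 5. On 6 libraries this scaling gave assembloid replicate 2 a size factor of 0.056, against 1.192 to 2.454 for the other libraries.

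Most genes tested of the pericentral zone were lower in assembloids. Of 13 pericentral genes tested, 8 were lower without overlap on 6 and on 5 libraries and 0 were higher, and the count of 8 was the same with scaling to total counts or to plasma protein genes. Their median log2 fold change was -1.57 on 6 libraries and -0.99 on 5, but 2.04 over the 2 members with at least 10 counts in every library, and DESeq2 called 5 lower and 0 higher on 5 libraries. Over all genes tested, 13.5% were lower without overlap on 6 libraries and 17.7% on 5, and DESeq2 called 2.6% lower on 5. Of the 15 members of the list, 10 were at 0 in replicate 2 and had counts in each of the other 5 libraries. Cyp2e1, a cytochrome P450 of alcohol and drug oxidation and a classical pericentral enzyme (GRCm39 chr7:140343652-140355167), was at 1260, 1096 and 248 CPM in HepOrgs and at 8.13, 0 and 17.3 CPM in the assembloids. The lowest HepOrg library was far above the highest assembloid library, and the log2 fold change was -6.67 ± 2.28 on 6 libraries and -6.10 ± 0.94 on 5 (SE; on 5, edgeR adjusted p = 0.17, DESeq2 adjusted p = 3.52e-16). Lgr5, the R-spondin receptor that amplifies Wnt signals (chr10:115286216-115423685), was at 3.94, 5.8 and 2.25 CPM in HepOrgs and at 0.0279, 0.0754 and 0.133 CPM in the assembloids, a log2 fold change of -5.05 ± 1.10 on 6 libraries and of -4.97 ± 0.75 on 5 (SE; on 5, edgeR adjusted p = 0.168). Lgr5 was low in all 3 assembloids, replicate 2 included. Tbx3, a transcription factor of pericentral hepatocytes, was at 22.7, 28 and 42 CPM in HepOrgs and at 5.62, 0.0189 and 5.44 CPM in the assembloids. Other members without overlap included Rgn, Gulo, Lect2 and Aldh1b1, with log2 fold changes of -2.54, -2.33, -2.29 and -0.57 on 5 libraries. Glul, the glutamine synthetase of the hepatocytes next to the central vein, did not follow them. It was at 120, 95.2 and 201 CPM in HepOrgs and at 175, 36.9 and 98.9 CPM in the assembloids, with a log2 fold change of -0.02 ± 0.40 on 5 libraries (SE; edgeR adjusted p = 0.989).

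Targets of Wnt signalling showed the same direction, with Lgr5 counted here as well. Of 10 tested, 7 were lower without overlap on 6 and on 5 libraries and 0 were higher, and the 7 became 4 with scaling to plasma protein genes. The median log2 fold change was -1.37 on 6 libraries and -0.88 on 5. Over all genes, 13.5% were lower without overlap on 6 libraries and 17.7% on 5. Of the 11 members of the list, 8 were at 0 in replicate 2 and had counts in each of the other 5 libraries. Notum, which encodes a secreted enzyme that inactivates Wnt ligands, was at 8.83, 6.21 and 8.71 CPM in HepOrgs and at 2.82, 0 and 1.77 CPM in the assembloids. Lef1, a transcription factor of the Wnt pathway, was at 4.91, 4.75 and 29 CPM in HepOrgs and at 0.615, 0 and 0.951 CPM in the assembloids. Both were lower in every assembloid library, with log2 fold changes of -2.34 and -4.52 on 6 libraries and of -1.78 ± 0.35 and -3.96 ± 1.02 on 5 (SE). Axin2, the feedback inhibitor of the pathway, was at 0.255, 0.824 and 0.624 CPM in HepOrgs and at 0.419, 0 and 0.484 CPM in the assembloids, and the groups overlapped.

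The promoter of Cyp2e1 is shown because it belongs to the gene with the lowest log2 fold change among the pericentral genes. It is a RefSeq window of 300 bases around the start of the gene, on GRCm38.p6, which is an earlier build than that of the counts, at Cyp2e1 chr7:140763569-140763868 (plus strand). The capitals mark CTTTGA, the core letters bound by the TCF factors of the Wnt pathway, searched as CTTTGA or TCAAAG so that both strands are covered.
Cyp2e1: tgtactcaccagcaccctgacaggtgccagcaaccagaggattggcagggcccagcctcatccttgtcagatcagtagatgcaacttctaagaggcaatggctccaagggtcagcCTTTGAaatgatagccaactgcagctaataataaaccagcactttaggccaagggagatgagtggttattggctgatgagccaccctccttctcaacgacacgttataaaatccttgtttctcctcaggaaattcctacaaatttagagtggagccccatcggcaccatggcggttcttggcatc
These letters were in 5 of the 8 windows of pericentral genes (62.5%), in 3 of the 13 windows of Wnt targets (23.1%) and in 16% of the 32817 promoter windows. The matches describe letters in the windows and do not show that a factor binds there.

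Among 14 periportal genes tested, 4 were higher and 1 was lower without overlap on 5 libraries, whereas 0 of 14 differed without overlap on 6. Over all genes, 15.4% were higher and 17.7% lower on 5 libraries, and 5.44% and 13.5% on 6. The median log2 fold change of the periportal genes was 0.35 on 6 libraries and 0.78 on 5. DESeq2 called 3 of them higher on 5 libraries, where it called 1.94% of all genes higher. Cyp2f2, the P450 that marks periportal hepatocytes, was at 0.646, 1.73 and 0.141 CPM in HepOrgs and at 26.8, 0 and 27.4 CPM in assembloid replicates 1, 2 and 3. The 2 assembloids other than replicate 2 were thus both above the HepOrgs, with a log2 fold change of 4.97 ± 0.83 (SE; edgeR adjusted p = 0.193, DESeq2 adjusted p = 2.19e-07). Hsd17b13, a lipid droplet protein, was at 237, 147 and 28.8 CPM in HepOrgs and at 1059, 0 and 691 CPM in the assembloids. Hal, the histidase of amino acid breakdown, was at 0.646, 0.549 and 0.382 CPM in HepOrgs and at 2.38, 0 and 2.47 CPM in the assembloids. All 3 genes were thus above the HepOrgs in replicates 1 and 3 and at 0 in replicate 2. Fbp1 and Arg1, enzymes of gluconeogenesis and of the urea cycle, overlapped between the groups, with log2 fold changes of 0.57 ± 0.39 and 2.34 ± 1.38 on 5 libraries (SE; edgeR adjusted p = 0.569 and 0.506).

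**Figure D3:**
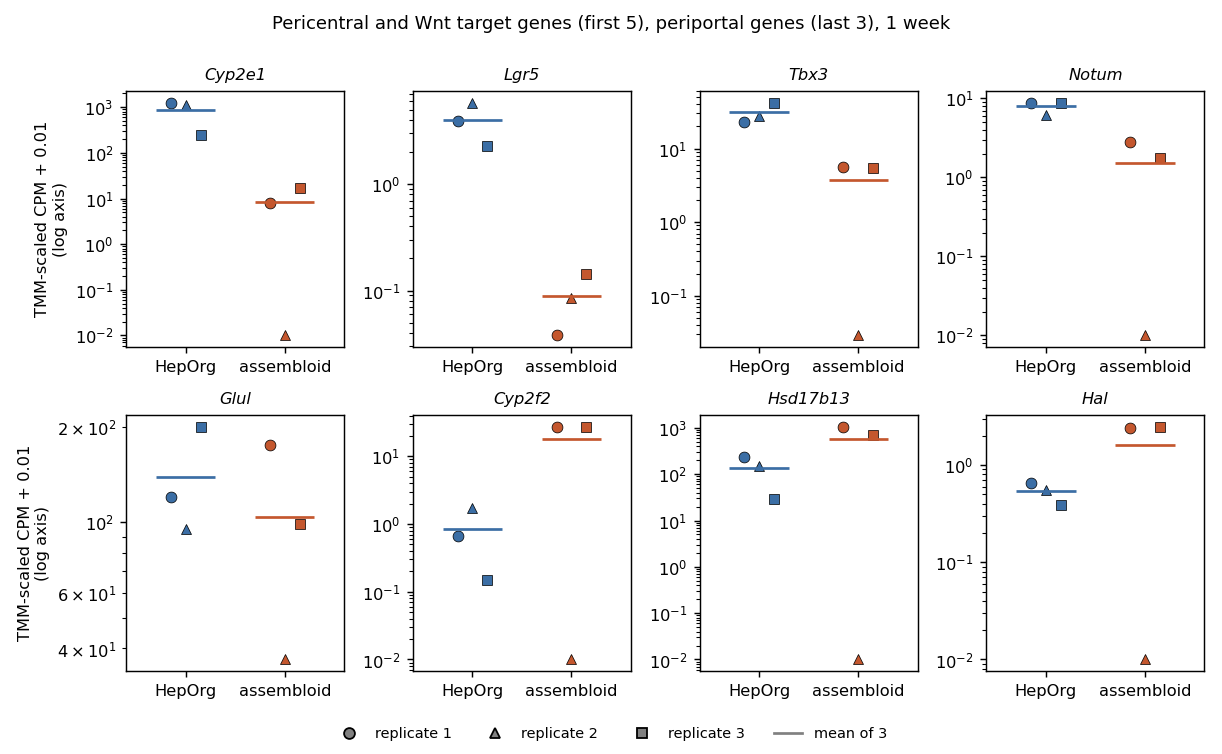
TMM-scaled CPM + 0.01 (log axis) of the pericentral and Wnt target genes Cyp2e1, Lgr5, Tbx3, Notum and Glul and of the periportal genes Cyp2f2, Hsd17b13 and Hal in HepOrgs and homeostatic assembloids at 1 week. Each symbol is a replicate and the line is the mean of 3; the first 4 genes are lower in every assembloid, Glul overlaps, and the periportal genes are high in replicates 1 and 3 but at 0 in replicate 2.

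Many genes that cells induce at low oxygen were lower in assembloids. The list, the longest of those used, was drawn up after values had been seen, and 38 of its 39 members in the table were tested. On 6 libraries 21 of them were lower without overlap and 0 were higher, and on 5 libraries 25 were lower. With scaling to plasma protein genes these counts were 12 and 21. With TMM factors, 13.5% of all genes were lower without overlap on 6 libraries and 17.7% on 5. The median log2 fold change of the list was -1.08 on 6 libraries and -1.05 on 5. DESeq2 called 15 members lower and 0 higher on 5 libraries, where it called 2.6% of all genes lower. Of the 39 members, 17 were at 0 in replicate 2 and had counts in each of the other 5 libraries. The oxygen sensor Egln3 (GRCm39 chr12:54225767-54250673) was at 155, 235 and 218 CPM in HepOrgs and at 27.6, 0.283 and 9.69 CPM in the assembloids, a log2 fold change of -4.01 ± 1.41 on 6 libraries and of -3.44 ± 0.52 on 5 (SE; on 5, edgeR adjusted p = 0.168). Slc16a3, the exporter of lactate (chr11:120838846-120851694), was at 28.3, 34.5 and 97.4 CPM in HepOrgs and at 3.49, 0 and 0.851 CPM in the assembloids. Ero1a, the oxidase of protein folding in the endoplasmic reticulum, was at 234, 343 and 1044 CPM in HepOrgs and at 60.6, 16.6 and 37.9 CPM in the assembloids. For each of these genes the lowest HepOrg library was above the highest assembloid library. Ndrg1 was at 109.1, 152 and 240 CPM in HepOrgs and at 18.2, 0 and 20.5 CPM in the assembloids. Stc1, a secreted glycoprotein, was at 6.48, 15.4 and 18 CPM in HepOrgs and at 0.727, 0 and 1.02 CPM in the assembloids.

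Among the glycolytic members, some were lower and others overlapped. Hk2, the hexokinase of the list with the lowest fold change, was at 8.12, 10.5 and 26 CPM in HepOrgs and at 2.4, 0 and 2.57 CPM in the assembloids (log2 fold change on 5 libraries -2.56 ± 0.57, SE). Pfkfb3, an activator of glycolysis, was at 73.2, 69.1 and 115 CPM against 25.1, 6.67 and 23 CPM, and lactate dehydrogenase Ldha at 2233, 2085 and 2480 CPM against 1585, 1041 and 841 CPM. In contrast, enolase Eno1 was at 1450, 1293 and 1429 CPM in HepOrgs and at 1660, 1444 and 1035 CPM in the assembloids, which overlapped. The genes of the oxygen-regulated factors themselves, Hif1a and Epas1, had log2 fold changes of 0.23 ± 0.32 and 0.12 ± 0.21 on 5 libraries (SE; edgeR adjusted p = 0.788 and 0.837).

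The promoters of 4 of these genes are shown since their windows hold the core of the hypoxia response element. They are RefSeq windows of 300 bases on GRCm38.p6, at Egln3 chr12:54203825-54204124 (minus strand), Ero1a chr14:45318523-45318822 (minus strand), Slc16a3 chr11:120948817-120949116 (plus strand) and Hk2 chr6:82774405-82774704 (minus strand), each written in the direction of its gene. The capitals mark ACGTG or, for the other strand, CACGT, and the letters CACGTG would count for both.
Egln3: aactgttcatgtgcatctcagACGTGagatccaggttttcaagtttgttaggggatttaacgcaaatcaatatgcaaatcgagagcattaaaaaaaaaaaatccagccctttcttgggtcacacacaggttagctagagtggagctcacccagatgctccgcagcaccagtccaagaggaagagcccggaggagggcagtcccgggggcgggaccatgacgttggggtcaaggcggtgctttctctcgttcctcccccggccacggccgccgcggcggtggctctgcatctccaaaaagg
Ero1a: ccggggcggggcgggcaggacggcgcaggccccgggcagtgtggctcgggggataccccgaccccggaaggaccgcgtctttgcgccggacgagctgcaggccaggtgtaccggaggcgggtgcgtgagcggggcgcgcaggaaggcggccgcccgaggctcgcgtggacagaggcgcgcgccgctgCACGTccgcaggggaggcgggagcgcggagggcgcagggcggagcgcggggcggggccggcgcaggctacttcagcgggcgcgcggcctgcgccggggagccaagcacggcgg
Slc16a3: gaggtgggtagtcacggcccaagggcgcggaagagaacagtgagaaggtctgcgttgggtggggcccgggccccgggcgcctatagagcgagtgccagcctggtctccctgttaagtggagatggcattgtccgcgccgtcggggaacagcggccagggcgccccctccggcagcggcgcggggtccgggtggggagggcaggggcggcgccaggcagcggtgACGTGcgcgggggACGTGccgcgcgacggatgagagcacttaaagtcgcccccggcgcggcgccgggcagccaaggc
Hk2: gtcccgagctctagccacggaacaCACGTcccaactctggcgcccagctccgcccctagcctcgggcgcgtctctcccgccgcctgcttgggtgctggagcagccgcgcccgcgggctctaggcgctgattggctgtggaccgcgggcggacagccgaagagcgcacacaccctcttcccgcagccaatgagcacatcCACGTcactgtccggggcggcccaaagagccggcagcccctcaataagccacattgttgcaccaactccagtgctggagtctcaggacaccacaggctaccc
Windows were found for 34 of the 40 genes listed, and 25 of their 50 windows (50%) held these letters, against 19.6% of the 32817 windows of all genes. The letters were also in 5 of 13 windows of immediate early genes (38.5%), 2 of 8 of pericentral genes (25%) and 2 of 13 of Wnt targets (15.4%). As above, a match is a description of the letters and not a site.

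Immediate early genes, which cells switch on within minutes of a stimulus or of handling, were lower in assembloid replicates 1 and 3. Of 16 tested on 5 libraries, 11 were lower without overlap and 0 were higher, and of 15 tested on 6 libraries, 5 were lower. The median log2 fold change was -1.01 on 5 libraries and -0.68 on 6, and DESeq2 called 7 lower on 5 libraries. With scaling to plasma protein genes the median was 3.75 on 6 libraries and -1.23 on 5. Among all genes, 17.7% were lower without overlap on 5 libraries and 13.5% on 6, and DESeq2 called 2.6% lower on 5. Egr1, a zinc finger transcription factor, was at 182, 186 and 248 CPM in HepOrgs and at 45, 2.28 and 32.1 CPM in the assembloids, all 3 of them below. For Fos, the partner of Jun in AP-1, the values were 54.7, 65.1 and 21.5 CPM in HepOrgs and 6.34, 78.8 and 3.19 CPM in the assembloids. Dusp1, a phosphatase that ends MAP kinase signals, was at 105, 81.6 and 91.6 CPM in HepOrgs and at 37.8, 188 and 43.6 CPM in the assembloids. Fos and Dusp1 were therefore low in replicates 1 and 3 and high in replicate 2, and their log2 fold changes of -3.31 ± 0.60 and -1.19 ± 0.20 on 5 libraries (SE) shrank to -0.68 and -0.05 on 6. Both were reversed on 6 libraries when these were scaled to plasma protein genes, whereas on 5 libraries that scaling gave -3.4 for Fos and -1.31 for Dusp1.

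**Figure D4:**
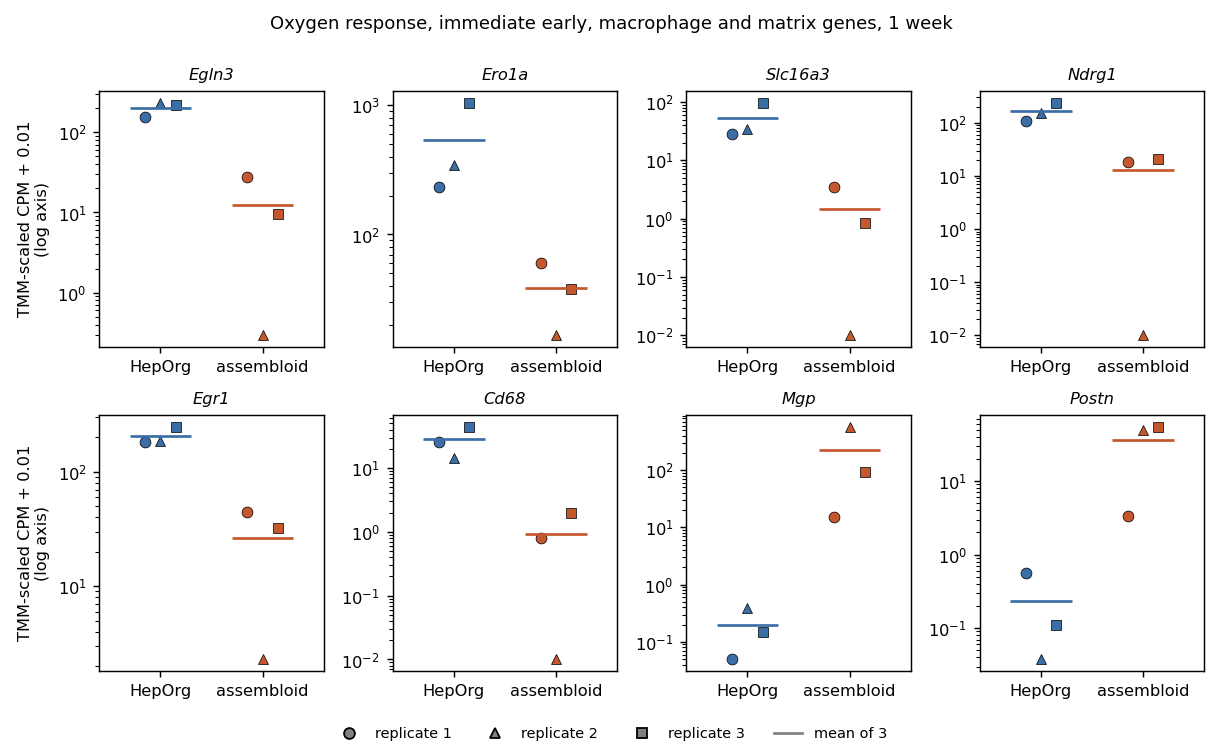
TMM-scaled CPM + 0.01 (log axis) of the hypoxia genes Egln3, Ero1a, Slc16a3 and Ndrg1, of Egr1 and Cd68, and of the matrix genes Mgp and Postn in HepOrgs and homeostatic assembloids at 1 week. Each symbol is a replicate and the line is the mean of 3; the first 6 genes are lower and the last 2 higher in every assembloid library.

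Several genes known from macrophages, but not all, were lower in assembloids than in HepOrgs. Immune cells were not part of either culture by design. The 10 immune markers summed to 11.4, 3.02 and 2.96 CPM in HepOrgs and to 2.46, 0.0189 and 3.2 CPM in the assembloids, and 2 of the 3 tested on 6 libraries were lower without overlap, as were 3 of 4 on 5. The sums overlapped between the groups. Of all genes tested, 13.5% were lower without overlap on 6 libraries and 17.7% on 5. Csf1r, the receptor of macrophages for their growth factor and the immune marker with the highest counts, was at 2.74, 1.95 and 1.49 CPM in HepOrgs and at 2.46, 0 and 3.2 CPM in the assembloids, with a log2 fold change of 0.44 on 5 libraries. C1qb, a complement protein made by macrophages, was at 4.58, 0.467 and 0.483 CPM in HepOrgs and at 0 in all 3 assembloids, and C1qa and C1qc were at 0 in the assembloids as well. In a further list of 19 macrophage genes, drawn up after values had been seen, 7 of 9 tested on 6 libraries and 9 of 10 on 5 were lower without overlap, and their sum was 142, 78.2 and 123 CPM in HepOrgs against 34, 1.02 and 36.9 CPM in the assembloids. With genes that were at 0 in a whole group set at their bound of 3 counts per library, the median log2 fold change of these genes was -3.77 on 6 libraries and -3.62 on 5. Lyz2, lysozyme, was at 41.3, 5.63 and 4.47 CPM in HepOrgs and at 0.335, 0.0189 and 0.117 CPM in the assembloids. Cd68, a lysosomal protein, was at 25.8, 14.5 and 44.3 CPM in HepOrgs and at 0.783, 0 and 1.95 CPM in the assembloids. Neither gene overlapped between the groups, whereas Mpeg1 had a log2 fold change of -0.17 on 5 libraries. Values of Cd68 and C1qb in the other groups are given side by side with no test. HM-Wnt HepOrgs of 1 week had 16.1 to 18.8 CPM of Cd68 and 0 to 0.145 CPM of C1qb. Those of 2 weeks had 18.6 to 43.7 CPM of Cd68 and 0 to 0.0252 CPM of C1qb. Freshly isolated hepatocytes had 1.49 to 8.36 CPM of Cd68 and 7.03 to 82.2 CPM of C1qb. MM HepOrgs of 2 weeks had 6.17 to 31.9 CPM of Cd68 and 0 to 42 CPM of C1qb. The other assembloid groups had at most 3.02 CPM of Cd68 and 0 CPM of C1qb. Which cells the Cd68 reads came from was not tested. The part of macrophages in the differences above was not tested. The 8 endothelial markers, of which 2 were tested, summed to 2.33, 1.26 and 1.81 CPM in HepOrgs and to 0.978, 0.189 and 1.18 CPM in the assembloids.

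Most of the small major urinary protein genes, which encode carriers of pheromones made by hepatocytes, were lower as well. This list was drawn up after values had been seen, its members are near-identical copies whose reads could not be assigned with certainty, and 14 of 20 tested were lower without overlap on 6 and on 5 libraries. The median log2 fold change was -3.62 on 6 libraries and -3.10 on 5. Among all genes, 13.5% were lower without overlap on 6 libraries and 17.7% on 5. Of the 22 members, 13 were at 0 in replicate 2 and had counts in each of the other 5 libraries. Mup17 was at 249, 132 and 91.9 CPM in HepOrgs and at 8.69, 0 and 1.58 CPM in the assembloids. Mup20 and Mup3, the members with the highest counts, overlapped between the groups, with log2 fold changes of 0.25 ± 1.31 and -0.91 ± 0.70 on 5 libraries (SE; edgeR adjusted p = 0.952 and 0.61). The exons of Mup20 lie within Mup3 in the annotation. Gpc3 and A2m, chosen after their values were seen, were further genes without overlap. Gpc3, a cell surface proteoglycan, was at 108.7, 107 and 268 CPM in HepOrgs and at 12.9, 0.0754 and 14.1 CPM in the assembloids. A2m, an inhibitor of proteases in plasma, was at 232, 225 and 124 CPM in HepOrgs and at 11.4, 0 and 1.92 CPM in the assembloids. Both were lower in every assembloid library, with log2 fold changes of -4.15 and -5.43 on 6 libraries and of -3.58 ± 0.52 and -4.86 ± 0.87 on 5 (SE).

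The duct keratins were higher in all 3 assembloids, by far the most in replicate 2. Krt7 (GRCm39 chr15:101308924-101328194), a keratin of duct cells, was at 1.1, 13.8 and 2.9 CPM in HepOrgs and at 17.8, 2791 and 173 CPM in the assembloids, a log2 fold change of 7.38 on 6 libraries and of 4.01 ± 1.27 on 5 (SE; edgeR adjusted p = 0.312). Krt19 (chr11:100031636-100039491), the other defining keratin, was at 2.98, 12.1 and 8.05 CPM in HepOrgs and at 14, 1401 and 128 CPM in the assembloids, a log2 fold change of 6.05 on 6 libraries and of 3.19 ± 0.94 on 5. Replicate 1 was only just above the highest HepOrg library for both keratins. The chloride channel Ano1 was at 1.14, 3.43 and 2.4 CPM in HepOrgs and at 3.21, 565 and 50.4 CPM in the assembloids, with replicate 1 inside the HepOrg range. Epcam and Ezr, the genes of an adhesion protein and of a linker of the apical membrane, also overlapped through replicate 1. Sox9, a transcription factor of duct cells and of hepatocytes near the portal tract, went the other way. It was at 27.2, 35.6 and 28.1 CPM in HepOrgs and at 13.3, 15.5 and 14.2 CPM in the assembloids, lower in all 3, with a log2 fold change of -1.14 ± 0.20 on 5 libraries (SE; edgeR adjusted p = 0.193, DESeq2 adjusted p = 0.000304). With scaling to plasma protein genes the log2 fold change was 2.64 on 6 libraries and -1.25 on 5.

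Over the lists of epithelial genes, few members separated the groups. Of all genes tested, 5.44% were higher and 13.5% were lower without overlap on 6 libraries, and 15.4% and 17.7% on 5. Of 6 cholangiocyte markers, 2 were higher and 1 was lower without overlap, and the median log2 fold change was 4.15 on 6 libraries and 1.47 on 5. Of 18 further duct epithelium genes, 1 was higher, Krt23, and 1 was lower, Elf3. Of 20 tight junction and adhesion genes, 1 was higher and 2 were lower on 6 libraries, with 2 and 4 on 5. Cldn6, a claudin of embryonic epithelia, was the member that was higher in all 3 assembloids, at 4.78, 125 and 3.67 CPM against 1.72, 2.72 and 1.03 CPM in HepOrgs. Spp1, osteopontin, was at 9184, 9409 and 3449 CPM in HepOrgs and at 7178, 3206 and 6981 CPM in the assembloids, a log2 fold change of -0.06 ± 0.54 on 5 libraries.

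Of the genes of portal fibroblasts, Mgp separated the groups most. Mgp (GRCm39 chr6:136849433-136852821), the inhibitor of calcification, was at 0.0392, 0.385 and 0.141 CPM in HepOrgs and at 15.2, 574 and 91.8 CPM in the assembloids, all 3 of them above. Its log2 fold change was 9.96 on 6 libraries and 7.93 ± 1.03 on 5 (SE; edgeR adjusted p = 0.168, DESeq2 adjusted p = 9.56e-16). Postn, a matrix protein of activated fibroblasts, was at 0.548, 0.0275 and 0.101 CPM in HepOrgs and at 3.38, 49.9 and 54.9 CPM in the assembloids. In replicate 1, in which the eGFP row held 23 counts, both were still above every HepOrg library. Of 11 portal fibroblast genes tested on 6 libraries, 3 were higher and 2 were lower without overlap, and of 14 tested on 5, 7 were higher and 3 were lower, with medians of 1.77 and 1.82 (log2). Mfap5 and Lum, of elastic and collagen fibrils, were the others that were higher in all 3 assembloids. Over all genes, 5.44% were higher and 13.5% lower without overlap on 6 libraries, and 15.4% and 17.7% on 5. Entpd2, the ectonucleotidase of portal fibroblasts, was at 28.8, 28.2 and 47.8 CPM in HepOrgs and at 17.4, 0 and 14.7 CPM in the assembloids, hence lower in all 3.

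Of 13 fibrillar and associated collagens, 1 was higher (Col16a1) and 1 was lower (Col12a1) without overlap on 6 and on 5 libraries. Their median log2 fold change was 1.44 on 6 libraries and 1.06 on 5, with 10 and 11 members above 0. Col1a1 was at 60.5, 25 and 39.5 CPM in HepOrgs and at 32.7, 233 and 63.4 CPM in the assembloids, a log2 fold change of 1.40 on 6 libraries and of 0.20 ± 0.43 on 5. Fibronectin (Fn1), which hepatocytes also secrete, was at 4019, 3809 and 4588 CPM in HepOrgs and at 2048, 1487 and 1333 CPM in the assembloids, lower in all 3 (log2 fold change on 5 libraries -1.30 ± 0.37, SE; edgeR adjusted p = 0.279). Of 19 basement membrane genes, 3 were higher and 2 were lower on 6 libraries, with 4 and 2 on 5. The higher ones were Col4a1, Lama3 and Lamb3, chains of type IV collagen and of laminin, and the lower ones Col4a4 and Col18a1. Of 14 matrix proteases and inhibitors, 2 were higher and 0 were lower on 6 libraries and 5 were higher on 5. Timp2, an inhibitor of matrix metalloproteases, was at 4.03, 2.12 and 2.84 CPM in HepOrgs and at 4.36, 396 and 41.1 CPM in the assembloids. Mmp2 and Mmp3, a gelatinase and a stromelysin, overlapped through replicate 1, with log2 fold changes of 1.87 ± 0.79 and 2.77 ± 1.2 on 5 libraries (SE; edgeR adjusted p = 0.392 and 0.399). Among 13 myofibroblast genes tested on 6 libraries, 2 were higher and 3 were lower, with 2 and 5 of 14 on 5. The shares over all genes were 5.44% higher and 13.5% lower on 6 libraries, and 15.4% and 17.7% on 5. Among 4 stellate cell genes 0 were higher and 1, Reln, was lower on 6 libraries, with 1 and 1 on 5. Of 9 mesenchyme markers, 0 differed without overlap on 6 or 5 libraries, and Ly6a, the gene of SCA1, was at 9.06, 13 and 17.2 CPM in HepOrgs and at 13.1, 1179 and 84.3 CPM in the assembloids. The duct keratins, the reporters, Mgp and Postn were all higher in replicates 2 and 3 than in replicate 1, and the part of the cell mix in the matrix values was not tested.

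Ligands of the Wnt family were expressed in the assembloids. This list was drawn up after values had been seen, and 8 of its 19 members had enough counts. On 6 libraries 3 were higher and 1 was lower without overlap, and on 5 libraries 4 were higher and 1 was lower. DESeq2 called the same numbers on 5 libraries. Over all genes, 5.44% were higher without overlap on 6 libraries and 15.4% on 5, and 13.5% and 17.7% were lower. DESeq2 called 1.94% of all genes higher and 2.6% lower on 5 libraries. Wnt5a, a ligand of the pathways without beta-catenin, was at 0.783, 0.742 and 0.604 CPM in HepOrgs and at 2.66, 85.1 and 10 CPM in the assembloids. Wnt7b was at 0.137, 0.385 and 0.865 CPM in HepOrgs and at 1.59, 77 and 26.6 CPM in the assembloids, and Wnt7a at 0.274, 0.659 and 1.17 CPM against 1.71, 12.7 and 17.9 CPM. All 3 were higher in every assembloid library, with log2 fold changes of 5.44, 6.12 and 3.87 on 6 libraries and of 3.08 ± 0.59, 4.80 ± 1.21 and 3.72 ± 1.01 on 5 (SE), and with scaling to plasma protein genes 1 of the 4 higher genes, Wnt5a, remained without overlap. Wnt16 was at 3.64, 2.64 and 2.58 CPM in HepOrgs and at 0.196, 0 and 0.167 CPM in the assembloids, hence lower in all 3.

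Among 11 targets of YAP, the effector of mechanical signals, 2 were higher without overlap on 6 and on 5 libraries and 0 were lower. DESeq2 called both on 5 libraries. Over all genes tested, 5.44% were higher without overlap on 6 libraries and 15.4% on 5, and DESeq2 called 1.94% higher on 5. With scaling to plasma protein genes 0 differed without overlap. Ccn2, a matricellular growth factor, was at 20.1, 21.4 and 19 CPM in HepOrgs and at 26.1, 1976 and 185 CPM in the assembloids (log2 fold change 5.17 on 6 libraries and 2.38 ± 0.70 on 5, SE; on 5, edgeR adjusted p = 0.293). Fjx1 was the other. Of 16 chemokines and cytokines, 2 were higher without overlap, beside the same shares over all genes, and 0 were with scaling to plasma protein genes or to total counts. Cxcl1, which attracts neutrophils, was at 133, 129 and 81.4 CPM in HepOrgs and at 144, 342 and 345 CPM in the assembloids. Cxcl5, of the same family, was at 4.99, 20.9 and 3.54 CPM in HepOrgs and at 22.4, 2133 and 213 CPM in the assembloids. Replicate 1 was just above the highest HepOrg library for each of these 3 genes. Cxcl12 overlapped, and Ccl11 had under 1 CPM in every library.

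Of the ligand and receptor genes that the study pairs within the mesenchyme or between hepatocytes and mesenchyme, in work on fibrotic-like assembloids, 8 were tested, and 2 were higher without overlap on 6 and on 5 libraries. These were Timp2, given above, and Itgb1, the beta 1 integrin, which was at 114, 101 and 155 CPM in HepOrgs and at 188, 392 and 233 CPM in the assembloids. Neither remained without overlap with the other scalings. Of all genes tested, 5.44% were higher without overlap on 6 libraries and 15.4% on 5. Ddr2, the collagen receptor, was at 1.51, 0.549 and 0.765 CPM in HepOrgs and at 1.15, 125 and 5.1 CPM in the assembloids. Gas6, its receptor Axl, Col1a1, Cd63 and fibrinogen Fgb overlapped, with log2 fold changes of 0.41, 0.73, 0.20, -0.01 and 0.18 on 5 libraries. Timp1 was listed at 0 in all 27 libraries. It shares that with 11 other list members, among them Ccl2, Igf2, Timp3 and Oat, and 83% of the 848 protein-coding genes that lie inside another gene were at 0 in all 27 libraries, against 11.9% of 20768 others.

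Lists of mature hepatocyte functions had median log2 fold changes between -0.07 and 0.44 on 5 libraries, and replicate 2 was far below the other libraries in them. Of 30 plasma protein genes, 1 (Rbp4) was lower on 6 libraries, and the median log2 fold change was -0.38 on 6 libraries and 0.19 on 5. Relative to the HepOrg mean, the median level of these genes was 0.63 in replicate 1, -5.37 in replicate 2 and -0.31 in replicate 3 (log2). Of 22 bile transport genes tested on 5 libraries, 3 were higher and 4 were lower without overlap, and among them Abcb11, the bile salt export pump, was at 96.6, 94 and 41.7 CPM in HepOrgs and at 102, 0 and 41.4 CPM in the assembloids. Abcc2, an exporter of conjugates, overlapped on 6 and on 5 libraries. Abcc3, of the same family, was at 264, 255 and 290 CPM in HepOrgs and at 296, 82.7 and 315 CPM in the assembloids, so that it was higher without overlap on 5 libraries only (log2 fold change 0.18 ± 0.20, SE; edgeR adjusted p = 0.732). Abcb1a and Abcg2, transporters of drugs, were the members that were higher in all 3 assembloids, and Slc10a2 and Slco1b2, which take up bile acids and organic anions, were lower in all 3. Of 16 bile acid synthesis genes, 0 were higher and 1, Akr1c6, was lower on 6 libraries, with 2 and 1 on 5. Of 25 cytochrome P450 genes, 1 was higher, Cyp4b1, and 3 were lower on 6 libraries, with 4 and 3 on 5. Beside these counts, the shares over all genes were 5.44% higher and 13.5% lower on 6 libraries, and 15.4% and 17.7% on 5.

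Of 11 urea cycle and ammonia genes, 0 differed without overlap on 6 libraries and 2 were higher on 5, namely Otc and Asl. Of 12 gluconeogenesis genes, 2 were lower on 6 libraries and 2 were higher and 2 lower on 5. Tat, the aminotransferase of tyrosine and a marker of mature hepatocytes, was at 58.5, 40.2 and 21.9 CPM in HepOrgs and at 109.3, 0 and 117.6 CPM in the assembloids, with a log2 fold change of 1.49 ± 0.39 on 5 libraries (SE; edgeR adjusted p = 0.271, DESeq2 adjusted p = 0.0194). Of 18 transcription factors of hepatocytes, 1 was higher and 2 were lower on 6 libraries, with 4 and 2 on 5. Over all genes the shares were 5.44% higher and 13.5% lower on 6 libraries, and 15.4% and 17.7% on 5. Cebpa, a factor of hepatocyte maturity, was at 23.3, 24.8 and 22.1 CPM in HepOrgs and at 45.3, 0 and 35 CPM in the assembloids, so that replicates 1 and 3 were above the HepOrgs and replicate 2 below. Of 20 acute phase genes, 0 differed on 6 libraries and 6 were higher on 5, among them Saa1, at 2024, 2036 and 169 CPM in HepOrgs and at 8428, 209 and 3147 CPM in the assembloids. Of 20 lipid genes, 0 were higher and 2 were lower on 6 libraries, with 6 and 4 on 5. The 6 higher ones, Hmgcs1, Mvd, Idi1, Fdps, Fdft1 and Cyp51, are enzymes of cholesterol synthesis, with log2 fold changes of 0.56 to 0.97 on 5 libraries and none called by DESeq2. Srebf2, a transcription factor that controls them, was lower in replicates 1 and 3, with a log2 fold change of -0.58.

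Genes of the cell cycle were lower without overlap about as often as all genes. Of 24 tested, 3 were lower on 6 libraries, where the share over all genes was 13.5%, and 5 on 5 libraries, where it was 17.7%, and 0 were higher, with medians of -0.84 and -0.48 (log2). Of these 24, 17 were at 0 in replicate 2 and had counts in each of the other 5 libraries. Cdk1, the kinase of mitosis, was at 6.23, 10.1 and 8.15 CPM in HepOrgs and at 3.8, 0 and 2.79 CPM in the assembloids. Mcm6, of the replicative helicase, was at 24.5, 31.8 and 23.8 CPM in HepOrgs and at 14.9, 0 and 11 CPM in the assembloids. Both were lower in all 3 assembloids and were called by DESeq2 on 5 libraries. Of 13 p53 targets, 2 were higher and 1 was lower on 6 libraries, with 3 and 1 on 5, and 0 differed with scaling to plasma protein genes. Of 9 Notch genes, 2 were lower on 6 libraries and 3 on 5. Of 11 genes of TGF-beta signalling tested on 6 libraries, 1 was higher, Ltbp2, and 4 of 13 were lower on 5. Of 22 growth factor and receptor genes, 0 were higher and 2 were lower on 6 libraries, with 0 and 4 on 5. The shares of 13.5% and 17.7% given above for lower genes apply to these lists too, and for higher genes they were 5.44% and 15.4%. Egfr, the receptor for EGF, was at 512, 460 and 317 CPM in HepOrgs and at 317, 119 and 181 CPM in the assembloids, with its highest assembloid library next to the lowest HepOrg library.

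**Figure D5:**
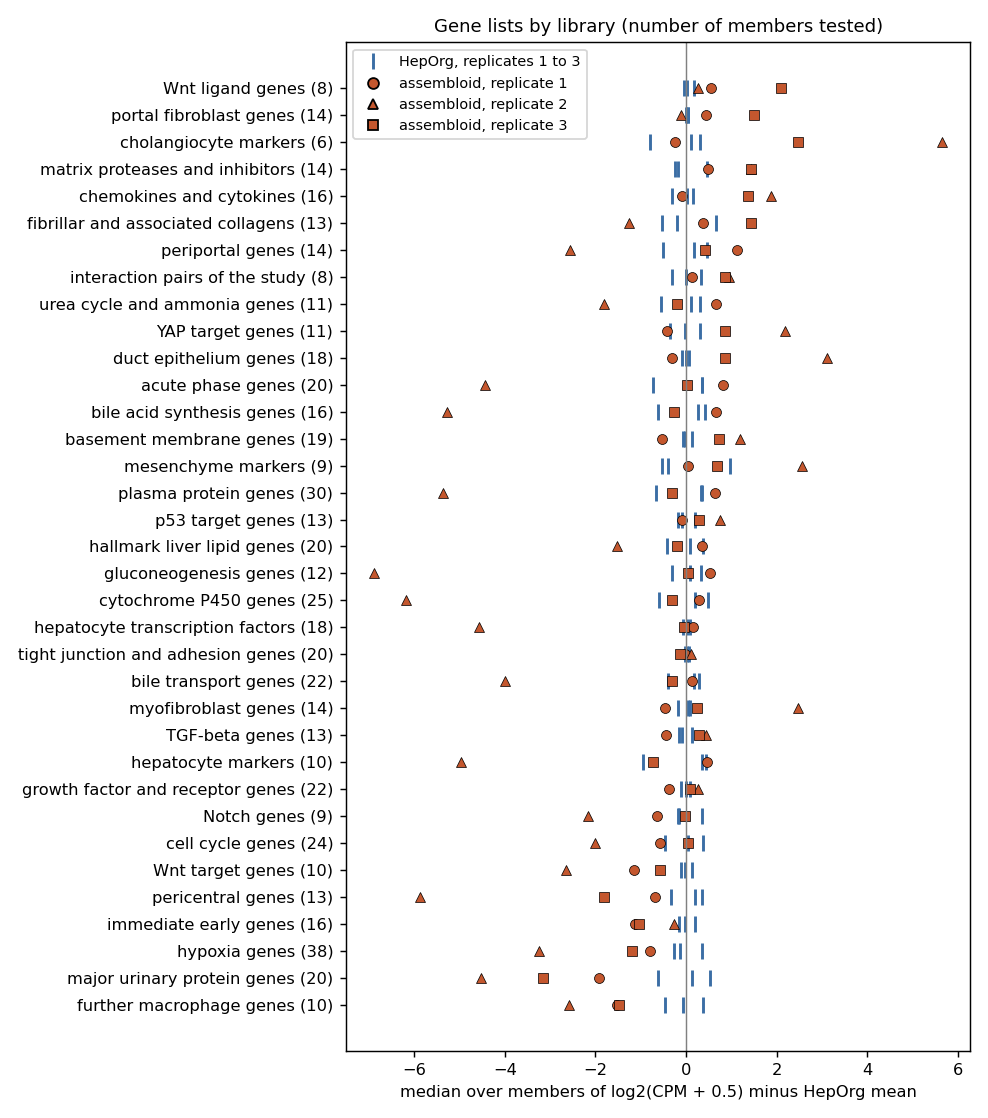
Median over the tested members of each gene list (number of members on 5 libraries in brackets) of log2(CPM + 0.5) minus the mean of the HepOrgs, by library. Bars are the 3 HepOrg libraries and filled symbols the assembloid replicates; replicate 2 lies far below the others in lists of hepatocyte functions and far above in cholangiocyte markers, and the lists at the bottom, from pericentral genes to macrophage genes, have replicates 1 and 3 below all HepOrg libraries.

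Chosen after their values were seen, Anxa1 and Cd14 were 2 further genes that were higher in every assembloid library. Anxa1, a protein that ends inflammation, was at 3.68, 2.01 and 1.43 CPM in HepOrgs and at 12.7, 1918 and 132 CPM in the assembloids. Cd14, a receptor for bacterial lipopolysaccharide, was at 169, 185 and 128 CPM in HepOrgs and at 474, 651 and 1190 CPM in the assembloids. Its log2 fold change was 2.26 on 6 libraries and 2.36 ± 0.42 on 5 (SE; edgeR adjusted p = 0.193, DESeq2 adjusted p = 7.97e-06).

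The other assembloids of the series had values on the same side for several of these genes, given here side by side with no test. In fibrotic-like assembloids at 1 week, with more mesenchymal cells, Cyp2e1 ranged from 0 to 19.3 CPM, Egln3 from 15.1 to 30.2 CPM, Slc16a3 from 0.999 to 11.7 CPM and Cd68 from 1.39 to 3 CPM, all below the 3 HepOrg libraries of that time. Lgr5 was between 1 and 2 CPM there, above the homeostatic assembloids and below the HepOrgs, while Cyp2f2 ranged from 0.629 to 5.64 CPM and overlapped with the HepOrgs. At later times, which differ between the groups, homeostatic assembloids of 2.5 weeks had 1.42 to 34.6 CPM of Cyp2e1 and 0.539 to 3.1 CPM of Slc16a3, and HepOrgs of 2 weeks had 46.3 to 403 CPM and 8.81 to 19.6 CPM. Mgp was at 16.8 to 40.3 CPM in these assembloids and at 0 to 0.622 CPM in the HepOrgs. Lgr5 ranged from 0.0598 to 0.526 CPM in the assembloids and from 0.0905 to 0.509 CPM in the HepOrgs, where the ranges overlapped. MM HepOrgs of 1 week had 2.27 to 5.69 CPM of Lgr5, 154 to 230 CPM of Egln3 and 28.1 to 98.1 CPM of Slc16a3. At 2 weeks these 3 genes were lower in MM HepOrgs without overlap, with Egln3 at 61.6 to 117 CPM. Cyp2e1, Cd68, Cyp2f2 and Mgp overlapped between these times. The part of time in MM in the differences above was not tested. Freshly isolated hepatocytes had 9060 to 15484 CPM of Cyp2e1 and 10.4 to 14.6 CPM of Egln3, so that the HepOrgs lay between fresh cells and assembloids in Cyp2e1 and above fresh cells in Egln3. Fresh cells had 3780 to 4814 CPM of Cyp2f2, far above every HepOrg and assembloid library.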

How the data were processed

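RNA was measured in 6 libraries of the 2 groups, made by the authors with SMART-seq2 and Nextera. The deposited counts are whole numbers of reads per gene, which the authors obtained with STAR on GRCm39 and featureCounts, with the strand setting not given in the sources used here. The TPM values deposited by the authors rest on a length that, for 80.8% of genes, lies within 5% of the span from start to end of the gene, so levels were not compared between genes. Of 37 libraries in the table, 10 were not used. The 79 rows without a symbol stayed in the fits.

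The test was the quasi-likelihood test of edgeR 4.0.16 in R 4.3.3 (TMM factors, genes kept by filterByExpr at 10 counts and 15 in total, a prior count of 2, Benjamini-Hochberg adjustment over all genes tested, adjusted p under 0.05), on the 6 libraries alone and without assembloid replicate 2. The procedure was tested on simulated counts without the dropouts of replicate 2, and its pass limits applied only at a smaller spread than that of these libraries. That test therefore does not cover data like these. A fold against libraries at 0 was set against 3 counts per library and covers counting error only. Alternatives were DESeq2 1.42.0, limma 3.58.1 (voom with sample weights, log2(TPM + 1) and log2(TPM + 0.1)), RLE factors, other filters, other sets of libraries, scaling to plasma protein genes, a block for the replicate number, and each library left out. Fits on 5 libraries other than edgeR's with TMM, and those on 17 and 26 libraries, were added after seeing the data.

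The members and gene lists were chosen with earlier results of these data known. The rule for named genes took the reporters, the study's markers and the genes it names for assembloids and zonation, up to 10 genes at each end among those past the threshold, and from each list the called members at each end and the 2 with the highest mean count. As no gene passed in edgeR, other genes named in the report were chosen after their values were seen. The results of some genes are not reported here, though these genes stay in the fits and in the counts of the lists. Promoter windows were searched in Python 3.11.15.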

Additional observations from a re-analysis of the deposited data

How the results depend on the processing

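The number of genes called was 0 with TMM or RLE factors, voom with sample weights, no count filter, a filter of 10 counts in every library, log2(TPM + 1) or log2(TPM + 0.1) with a filter, and 18 MM libraries, and 0 in each fit that left out 1 library. It was 23 with scaling to plasma protein genes, 118 with DESeq2, 8 with log2(TPM + 1) and no filter, and 197 with all 27 libraries in 1 fit. Fits added after seeing the data called 591 (DESeq2), 229 (scaling to plasma protein genes) and 20 (log2(TPM + 1)) on 5 libraries, 4 on 17 MM libraries and 13 on 26 libraries. Genes at an unadjusted p under 0.05 were 372 on 6 libraries, 118, 99 and 92 without HepOrg replicate 1, 2 or 3, and 992, 1687 and 477 without assembloid replicate 1, 2 or 3.

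Replicate numbers are shared between the groups, and the correlations of same-numbered libraries' deviations were 0.157, -0.121 and -0.076. These deviations were taken from group means that include assembloid replicate 2, so they cannot settle whether same-numbered libraries belong together. With the replicate block 0 genes were called (48 at an unadjusted p under 0.05) on 6 libraries and 4 on 5. The block reversed the log2 fold changes of Hpx (-0.04) and Pdgfra (0.52), neither of which was called.

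The medians of 38 lists over these fits gave 678 values, of which 547 lay within the spread between replicates of the median on 6 libraries and 131 did not. In 49 of them, from 20 lists, the sign was turned. Leaving out assembloid replicate 2 turned 12 medians, among them those of plasma protein genes (from -0.38 to 0.19), cytochrome P450 genes (from -0.52 to 0.06), acute phase genes (from -0.17 to 0.31) and myofibroblast genes (from 1.88 to -0.10). Scaling to plasma protein genes turned that of immediate early genes from -0.68 to 3.75 on 6 libraries, whereas it was -1.23 on 5 libraries with that scaling. The filter of 10 counts in every library left 2 pericentral genes, with a median of 2.04, 2 Notch genes, with 1.55, and 6 cell cycle genes, with 0.45. The fits on filtered TPM kept 1 Wnt ligand, at -1.45 or -3.62, and turned periportal genes to -0.31 or -0.76. Among the named genes, scaling to plasma protein genes on 6 libraries reversed Apoa1 (0.56), Alb (0.03), Gpx1 (2.07), Sox9 (2.64), Pdgfra (3.15), Abcc2 (0.99), Abcc3 (2.05), Glul (1.69), Cd63 (3.44), Fos (4.47) and Dusp1 (4.56). On 5 libraries that scaling gave 0.51 for Apoa1, 0.01 for Abcc3 and negative log2 fold changes for the others. Voom reversed Apoa1 (0.09), Vim (-0.08), Col3a1 (-0.18), Abcc3 (0.23), Fbp1 (0.36), Glul (0.13), Axin2 (0.04), Cxcl12 (0.16) and Cd63 (0.09). The TPM fits reversed Hpx (-0.28) and Cd63 (0.15), and with log2(TPM + 0.1) also Arg1 (-0.35) and Hsd17b13 (-0.76). The filter of 10 counts in every library reversed Vim (-0.09) and the fit on 18 MM libraries Dusp1 (0.02). The cause of these changes was not tested.

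Leaving out 1 library turned the direction of 17 named genes, whose log2 fold changes ranged from -0.98 to 0.57 for Apoa1, -1.79 to 0.02 for Apoc1, -0.56 to 1.06 for Hpx, -3.92 to 0.37 for Mup20, -1.03 to 1.57 for Pdgfra, -0.20 to 0.32 for Vim, -0.19 to 2.32 for Col3a1, -0.39 to 3.34 for Col6a2, -0.47 to 0.18 for Abcc3, -1.03 to 0.57 for Fbp1, -0.07 to 2.89 for Arg1, -0.61 to 0.40 for Cxcl12, -0.28 to 0.41 for Gas6, -0.08 to 0.94 for Axl, -0.11 to 0.08 for Cd63, -1.25 to 0.18 for Fgb and -1.19 to 0.39 for Dusp1. With 3 libraries a group, 1 of them with 8465 genes, the spread between libraries limits what can be called.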
